A study of Arabidopsis thaliana with 9 samples.

Results

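UDP-glycosyltransferases of the UGT family were followed in T87 cells of Arabidopsis thaliana across 3 states: protoplasts, walled cells in mannitol medium (called osmotic cells) and intact cells. The members were the genes whose array annotation symbol starts with UGT and a number, plus GT72B1, where the probe set names a single gene. This gave 48 of the 13356 genes measured, and all 48 symbols were matched in RefSeq. They fall into 11 subfamilies by the number in the symbol, with 9 genes in subfamily 71, 5 in 72, 7 in 73, 3 in 74, 8 in 76, 3 in 78, 5 in 84, 5 in 85, and 1 each in 80, 87 and 88. Another 3 probe sets that list a UGT gene beside a second gene were left out, among them the one shared by UGT73B2 and UGT73B3. In RefSeq 64 protein-coding genes carry a UGT name as symbol or synonym, GT72B1 included. The 48 are thus a part of the family, and subfamily counts cover measured genes only.

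These enzymes move a sugar, most often glucose, from a UDP-sugar onto small molecules such as hormones, phenolics, flavonoids and foreign chemicals. The sugar usually makes the acceptor more soluble and less active, and lets it be stored in the vacuole, while beta-glucosidases can take the sugar off again. Relatives within a subfamily often share acceptors, yet single members are known for very different ones, from abscisic acid to monolignols.

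T87 is an established suspension line of wild-type Arabidopsis kept in the light, and every sample came from 4-day-old cultures. Protoplasts were made by digesting the walls for 1.5 h in 0.35 M mannitol with pectolyase at 0.5% and cellulase at 1%. They were then washed 3 times with 0.4 M mannitol and kept 3 h in medium holding 0.4 M mannitol. Osmotic cells spent 3 h in medium with 0.4 M mannitol and kept their walls. Intact cells were collected with no treatment and, as far as the labels say, without moving them to fresh medium, so mannitol cannot be told apart here from handling, the change of medium or time. Protoplasts differ from osmotic cells by the enzymes, the washes and the added time together.

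Each group had 3 biological replicates, 1 ATH1 array each, and the number of arrays limits the precision. Values are intensities on a linear scale, and differences are given as log2(intensity + 16) with the standard error of the linear model. On that scale the change of a dim gene is understated. A gene is called higher or lower at a limma adjusted p under 0.05 over all genes, and "rose" and "fell" are used of called genes only. Array medians lay between 115.7 and 131.0 in protoplasts, 144.9 and 162.8 in osmotic cells and 152.1 and 156.2 in intact cells. Of the 48 genes, 27 were among the dimmest 40% of all genes, with a mean intensity of at most 61.9, and 5 stayed under 10 in every array. No detection calls were used, so dim genes cannot be told from background. Few markers of other cell types were matched by name to a measured gene, with 0 on the phloem, trichome, seed and pollen lists. Probe sets without a symbol in the array annotation could not be matched, so an unmatched gene may still be on the array. The root hair genes EXPA7 and EXPA18, 2 of 5 on their list, were dim and together summed to between 31.8 and 65.9 in protoplasts, 16.4 and 44.3 in osmotic cells and 31.8 and 67.6 in intact cells. The guard cell genes FMA and SPCH, 2 of 4, together stayed at or below 27.8 in every array, and the secondary wall gene GUT2, 1 of 10, lay between 94.3 and 110.5 in protoplasts, 89.6 and 98.5 in osmotic cells and 104 and 114 in intact cells. Nuclear photosynthesis genes, which mark a culture grown in light, were matched by symbols starting with LHCA, LHCB, PSA or PSB. All 8 matched genes fell in protoplasts, or 100%, against 29.2% of all genes and 45.2% of those above the dimmest 40%. Their summed intensity was 5847 to 6920.3 in protoplasts, 14822 to 16298 in osmotic cells and 12247 to 14926 in intact cells. PRL was the 1 gene matched on the DNA replication list. It fell in both treated groups, as did 29.2% of all genes in protoplasts and 3.75% in osmotic cells. Its intensity was 184 to 221 in protoplasts, 421 to 464 in osmotic cells and 766 to 889.8 in intact cells. Their part in the results was not tested.

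**Figure D1:**
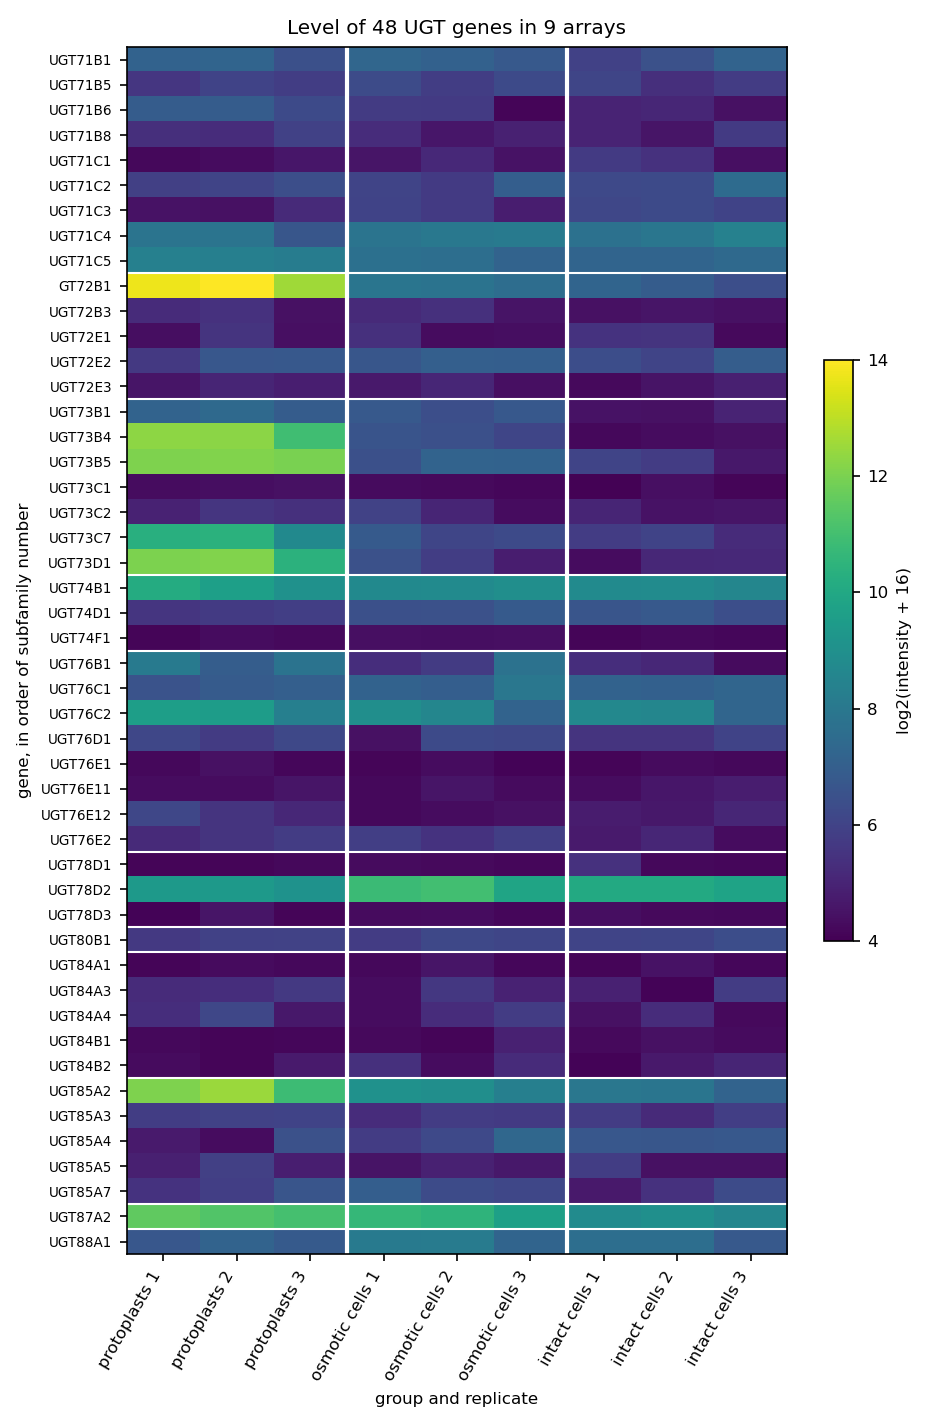
Level of each of the 48 UGT genes (rows, in order of subfamily number) in each of the 9 arrays (columns, 3 per group), as log2(intensity + 16) by colour. A few genes of subfamilies 72, 73, 85 and 87 are bright in protoplasts, and most other genes are dim in every array.

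Protoplasts were set against intact cells to ask what wall digestion, washing and mannitol medium do together. UGT73B4, UGT73B5, UGT73C7, UGT73D1, GT72B1 and UGT85A2 rose strongly, by 4.13 to 7.49 on the log2 scale. Several of them had intact values near background, so their order depends on the pseudocount. In all, 14 of the 48 genes rose, or 29.2%, against 15.8% of all 13356 genes, and 3 fell, or 6.25%, against 29.2% of all genes. These shares describe the genes and were not tested against other families. Of the 14, 6 rose at least 16-fold with the pseudocount of 16, or 12.5% of the 48 genes, against 1.89% of all genes. At a called change of at least 2-fold, 10 were higher and 2 lower, or 20.8% and 4.17%, against 11.7% and 20.8% of all genes. The arrays of protoplasts and intact cells did not overlap for 14 genes upward and 7 downward, or 29.2% and 14.6%, against 19.6% and 33.0% of all genes. The median over the 48 was 0.32, against -0.10 over all genes. In bulk samples, fewer cells of a kind and less RNA per cell cannot be told apart.

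The 14 and 3 depended on how arrays were scaled. Against 82.4% of the called UGT genes being higher as deposited, 68.8% were higher after centring on hybridisation controls, with 11 rises and 5 falls. Under that centring UGT74B1, UGT76E12 and UGT76E2 were no longer called higher (limma adjusted p = 0.0779, 0.134 and 0.136), and UGT71C1 and UGT78D2 were called lower (limma adjusted p = 0.0401 and 0.0493). Centring arrays on their medians moved the split the other way, to 17 rises and 2 falls or 89.5% higher, with UGT72B3, UGT73C1 and UGT85A3 gained (limma adjusted p = 0.0385, 0.0284 and 0.045) and UGT85A4 lost (0.0897). Quantile normalization gave 13 rises and 3 falls, or 81.2% higher, without UGT76E12 and UGT85A4 (limma adjusted p = 0.109 and 0.0716). It gained UGT71C1 as a fall, at -0.89, with a limma adjusted p just under the threshold (0.05 when rounded). Over all genes, 2108 were called higher and 3902 lower as deposited. Their split under the other scalings was not counted, so the UGT splits there have no share of all genes beside them. The median change of all genes was -0.10 as deposited, 0.22 with arrays centred on their medians and -0.34 with the hybridisation controls as the centre, so small changes are relative to that choice. Among the 21 genes above the dim 40%, 11 rose and 2 fell, or 52.4% and 9.52%, against 21.6% and 45.2% of the 8013 brighter genes. Among the 27 dim ones, 3 rose and 1 fell, or 11.1% and 3.70%, against 7.13% and 5.30% of the 5343 dim genes.

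**Figure D2:**
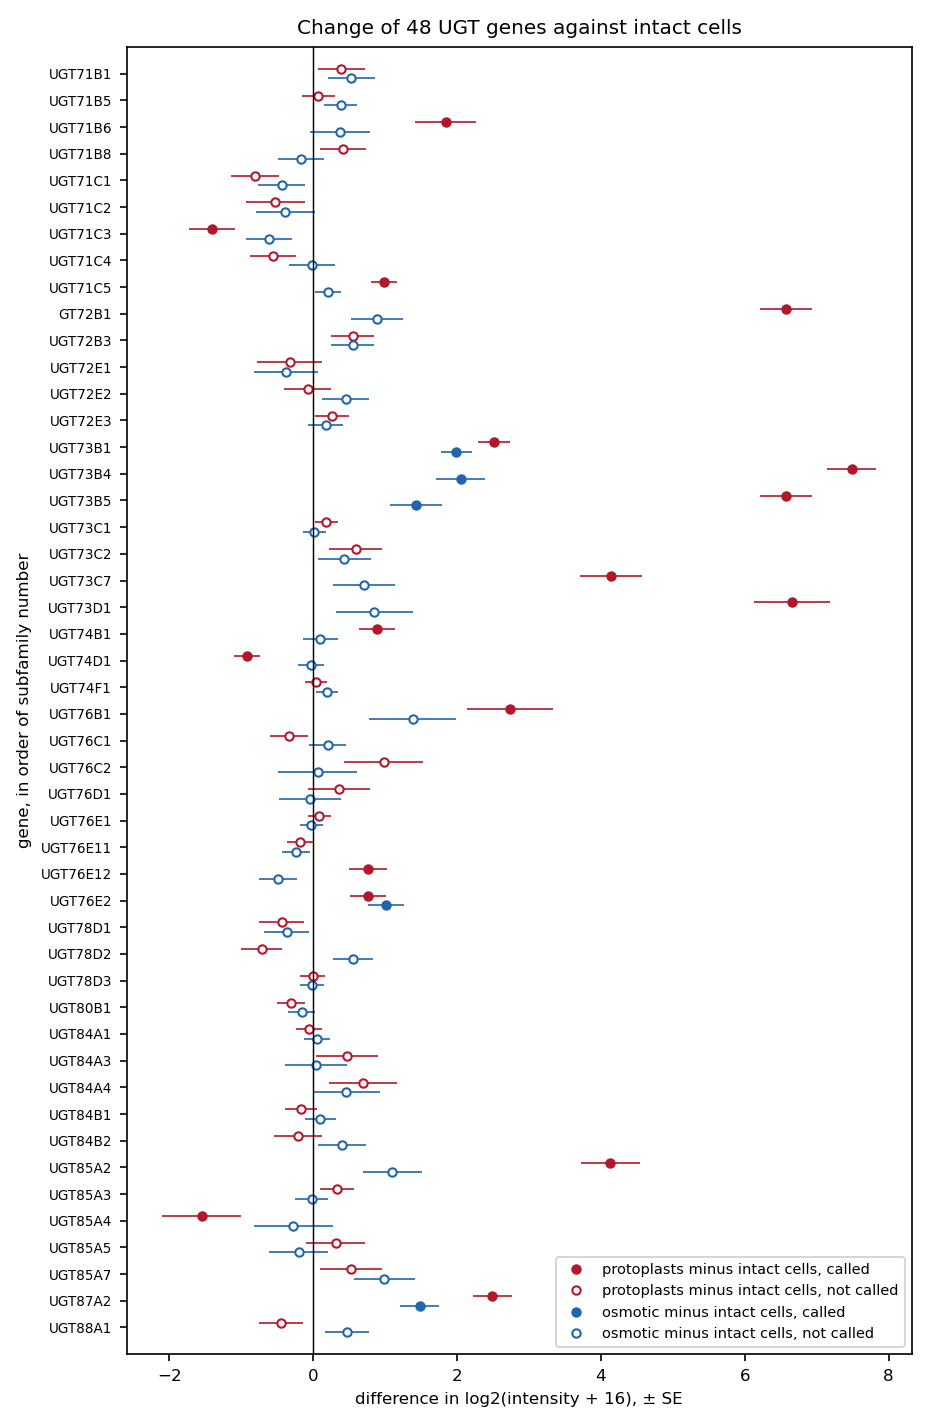
Difference in log2(intensity + 16) from intact cells for each of the 48 UGT genes, with red for protoplasts and blue for osmotic cells. Bars are 1 standard error of the linear model on 3 arrays per group, and filled points are called at a limma adjusted p under 0.05. On this scale UGT73B4, UGT73D1, GT72B1 and UGT73B5 in protoplasts lie farthest right.

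Subfamily 73 held 4 of the 6 rises of at least 16-fold, with 5 of its 7 genes higher in protoplasts, 0 lower, and a median log2 change of 4.14. Over all genes 15.8% were higher and 29.2% lower, with a median of -0.10. These values stand beside this and every subfamily count below, and no subfamily was tested against them. UGT73B4 (AT2G15490), which can glucosylate breakdown products of the explosive TNT, had intensities of 5014, 4892 and 1957 in protoplasts, 81.9, 71.5 and 52.7 in osmotic cells and 2.7, 4.39 and 5.81 in intact cells. The 3 groups did not overlap, and the third protoplast array was the lowest of its group. UGT73B4 rose by 7.49 ± 0.34 in protoplasts against intact cells (limma adjusted p = 8.0e-07). Its neighbour on chromosome 2, UGT73B5 (AT2G15480), needed for full resistance to the bacterium Pseudomonas syringae, had 4275, 4428 and 4018 in protoplasts, 70, 131 and 124 in osmotic cells and 50.4, 38.8 and 8.81 in intact cells. Here the protoplast arrays lay close together, and no groups overlapped. The rise of UGT73B5 over intact cells was 6.57 ± 0.36 (limma adjusted p = 1.5e-06). The intact values of UGT73B4 cannot be told from background, so the size of its change depends on the pseudocount. With pseudocounts of 1 and 64 in place of 16, the change of UGT73B4 was 9.47 and 5.76, and that of UGT73B5 was 7.28 and 5.50.

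UGT73D1 (AT3G53150) had 4132, 4431 and 1362 in protoplasts, 74.4, 40.3 and 12.2 in osmotic cells and 4.19, 18.8 and 19.2 in intact cells. Protoplasts stood far above both other groups, which overlapped each other. Against intact cells UGT73D1 rose by 6.66 ± 0.53 (limma adjusted p = 1.1e-05), or by 7.84 and 5.27 with pseudocounts of 1 and 64. UGT73C7 (AT3G53160), which glucosylates phenolic acids such as p-coumaric and ferulic acid and has been tied to immunity, lies beside UGT73D1 on chromosome 3. It had 1249, 1313 and 417 in protoplasts, 96.9, 51.2 and 60.3 in osmotic cells and 38.7, 48.6 and 21.7 in intact cells. The third protoplast array was again lowest, yet above every walled-cell array. UGT73C7 rose by 4.14 ± 0.43 (limma adjusted p = 5.0e-05). UGT73B1 (AT4G34138) was dimmer, with 128, 156 and 104 in protoplasts, 94.1, 68.6 and 90.8 in osmotic cells and 6.48, 5.92 and 16.3 in intact cells. Its rise over intact cells was 2.51 ± 0.22 (limma adjusted p = 2.0e-05), beside 1.99 in osmotic cells. The remaining members, UGT73C1 and UGT73C2, were dim, with means of 5 and 23.6 in protoplasts and 2.65 and 10.2 in intact cells, and did not pass (limma adjusted p = 0.415 and 0.244).

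Subfamily 72 held 1 strong riser among 5 genes. GT72B1 (AT4G01070), an enzyme that conjugates chlorinated phenols and anilines and also acts on monolignols, had 13705, 15933 and 6048 in protoplasts, 218, 206 and 174 in osmotic cells and 133, 105 and 69.1 in intact cells. It was the brightest UGT gene in all 3 protoplast arrays, where it made up 28.9% to 36.7% of the summed intensity of the 48 genes. The mean was 11895 ± 5185 in protoplasts and 102 ± 31.8 in intact cells (SD, n = 3 each), and GT72B1 rose by 6.57 ± 0.36 (limma adjusted p = 1.5e-06). With pseudocounts of 1 and 64 its change was 6.78 and 6.07, and at 64 it exceeded those of UGT73B4, UGT73B5 and UGT73D1. The monolignol enzymes of the same subfamily did not pass. UGT72E1, which acts on monolignol aldehydes, had -0.33 ± 0.45, UGT72E2, which acts on coniferyl alcohol, had -0.08 ± 0.33, and UGT72E3, which acts on sinapyl alcohol, had 0.26 ± 0.24 (limma adjusted p = 0.615, 0.878 and 0.432). Their means in protoplasts were 13, 71.2 and 12.3. UGT72B3 had 0.55 ± 0.30 and did not pass either (limma adjusted p = 0.176), but was called without protoplast replicate 3, at 0.84 (limma adjusted p = 0.0266). It was dim, with 21.7, 26.6 and 5.64 in protoplasts and 5.68, 7.47 and 5.92 in intact cells, so the array left out was the protoplast array at the intact level.

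UGT85A2 (AT1G22360) rose alone among the 5 measured genes of subfamily 85. It had 4250.3, 5762 and 1828 in protoplasts, 511, 479.6 and 306 in osmotic cells and 232, 222 and 128 in intact cells, 3 groups without overlap. Against intact cells its change was 4.13 ± 0.41 (limma adjusted p = 4.2e-05). UGT85A4 (AT1G78270) fell, with 10.3, 4.06 and 73.4 in protoplasts, 39.1, 57.8 and 145 in osmotic cells and 89.9, 85.8 and 92.5 in intact cells. Protoplast replicate 3 stood far above the other two protoplast arrays, and the change of UGT85A4 was -1.55 ± 0.55 (limma adjusted p = 0.0429). That call was lost without protoplast replicate 1 or 2 (limma adjusted p = 0.134 and 0.155), osmotic replicate 2 (0.0583), or intact replicate 1, 2 or 3 (0.0949, 0.0898 and 0.0959). It was also lost with a pseudocount of 1 or 64 (limma adjusted p = 0.0606 and 0.0676). UGT85A3, UGT85A5, tied to salt tolerance when expressed in tobacco, and UGT85A7 had between 0.31 and 0.52 and did not pass.

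UGT87A2 (AT2G30140), which influences flowering time, had the next highest protoplast mean after GT72B1, UGT73B5, UGT73B4, UGT85A2 and UGT73D1. It had 2978, 2457 and 2109 in protoplasts, 1622, 1426 and 796 in osmotic cells and 436, 490.1 and 373 in intact cells. The groups formed 3 separate steps. The rise in protoplasts over intact cells was 2.49 ± 0.27 (limma adjusted p = 7.0e-05).

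**Figure D3:**
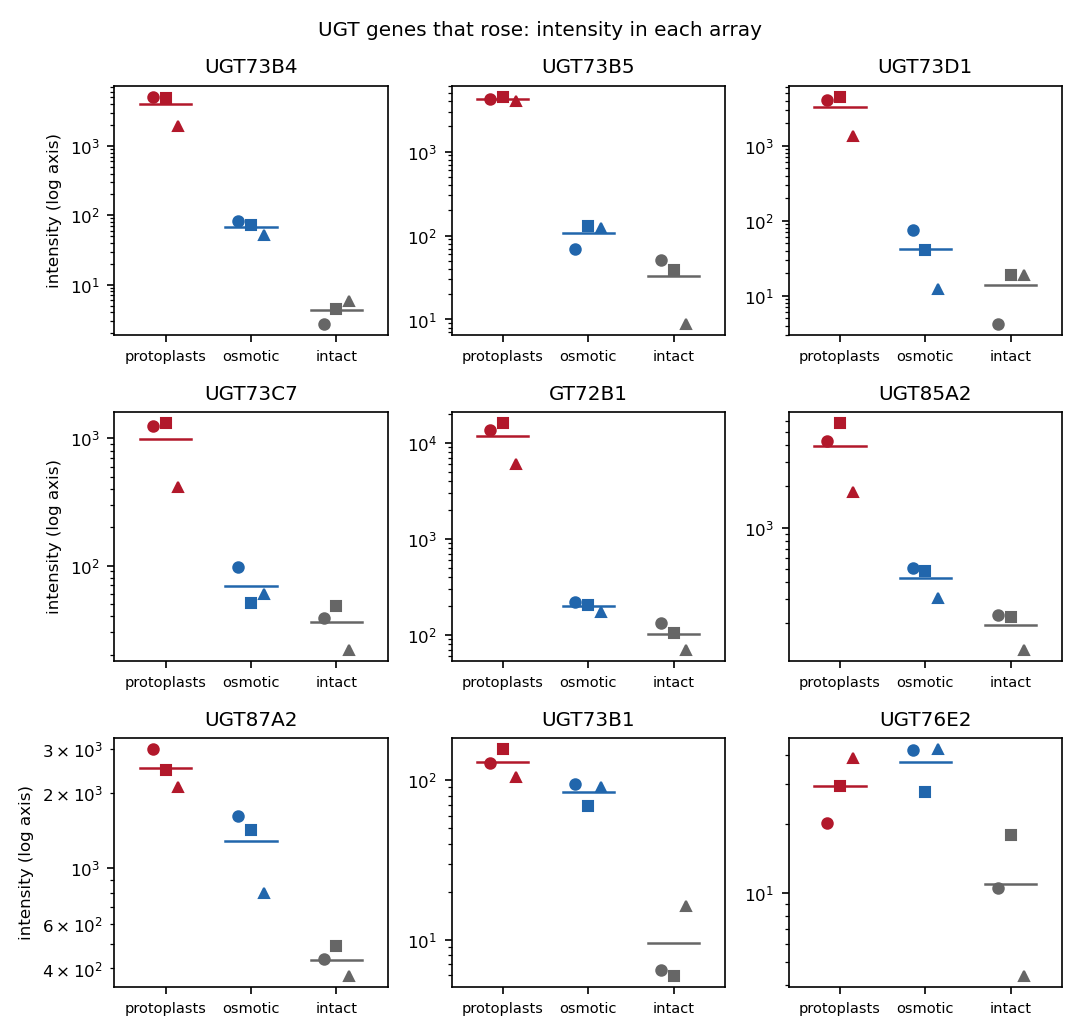
Intensity (log axis) of 9 UGT genes that rose, in each array of protoplasts, osmotic cells and intact cells. Circles, squares and triangles are replicates 1, 2 and 3, and lines are group means. Protoplasts lie far above both walled groups for UGT73B4, UGT73B5, UGT73D1, UGT73C7, GT72B1 and UGT85A2. For UGT73B1 and the dim UGT76E2, all protoplast and osmotic arrays lie above all intact arrays.

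Of the 8 genes of subfamily 76, 3 rose in protoplasts and 0 fell, against 15.8% and 29.2% of all genes. Their median was 0.56. UGT76B1 (AT3G11340), which glucosylates the defence signals isoleucic acid, salicylic acid and N-hydroxypipecolic acid, had 266, 109 and 207 in protoplasts, 23.9, 37.7 and 204 in osmotic cells and 23.7, 18.3 and 3.47 in intact cells. A single osmotic array reached the protoplast range. UGT76B1 rose by 2.74 ± 0.60 over intact cells (limma adjusted p = 0.00418). UGT76E12 (AT3G46660), a flavonol glucosyltransferase, was dim, with 54.1, 28.9 and 18.8 in protoplasts, 2.58, 4.02 and 5.7 in osmotic cells and 10.9, 8.7 and 17.5 in intact cells. It rose by 0.76 ± 0.26 (limma adjusted p = 0.0347). UGT76E2 (AT5G59590) had 20.2, 29.4 and 38.8 in protoplasts, 42.4, 27.6 and 42.5 in osmotic cells and 10.6, 18 and 4.36 in intact cells. It rose by 0.76 ± 0.25 (limma adjusted p = 0.0284). The call of UGT76E12 was lost without protoplast replicate 1 (0.49, limma adjusted p = 0.107) or 2 (0.0637), osmotic replicate 2 (0.0514), or intact replicate 1 (0.093) or 2 (0.112). That of UGT76E2 was lost without protoplast replicate 2 (limma adjusted p = 0.0711) or 3 (0.0855), or intact replicate 1 (0.0684) or 3 (0.102). With a pseudocount of 64 both were lost (limma adjusted p = 0.0646 for UGT76E12 and 0.0568 for UGT76E2).

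The cytokinin N-glucosyltransferase genes UGT76C1 and UGT76C2 did not pass, with -0.34 ± 0.26 and 0.98 ± 0.55 (limma adjusted p = 0.349 and 0.192). UGT76C2 (AT5G05860) had 761, 728 and 306 in protoplasts, 473, 373 and 128 in osmotic cells and 393, 366 and 139 in intact cells. In each of the 3 groups replicate 3 was the lowest, and each protoplast array lay above the osmotic and intact arrays of the same number. Between protoplasts and osmotic cells UGT76C2 had 0.92 ± 0.55 (limma adjusted p = 0.232), and was called higher with the replicate number as a block (limma adjusted p = 0.00333). UGT76D1, which acts on dihydroxybenzoic acids, UGT76E1, which acts on hydroxyjasmonate, and UGT76E11, a flavonol enzyme, had 0.36 ± 0.43, 0.08 ± 0.16 and -0.18 ± 0.19 and did not pass.

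In subfamily 71, 2 of 9 genes were higher, 1 was lower and the median was 0.07, against 15.8% higher and 29.2% lower of all genes. UGT71C3 (AT1G07260), which glucosylates methyl salicylate, was low in protoplasts, at 6.3, 5.63 and 21, against 48.4, 36.3 and 12 in osmotic cells and 53.3, 58.9 and 48.2 in intact cells. Protoplasts did not overlap intact cells, and the osmotic arrays spread across both. UGT71C3 changed by -1.41 ± 0.32 against intact cells (limma adjusted p = 0.00528). The 2 risers both encode enzymes of abscisic acid glucosylation. UGT71B6 (AT3G21780) had 103, 103 and 59.1 in protoplasts, 38.1, 36.2 and 1.83 in osmotic cells and 15.9, 18 and 5.63 in intact cells. It rose by 1.84 ± 0.42 (limma adjusted p = 0.00527), a call lost with a pseudocount of 1 (limma adjusted p = 0.0529). UGT71C5 (AT1G07240) had 311, 300.3 and 275 in protoplasts, 188, 182 and 131 in osmotic cells and 133, 134 and 157 in intact cells. Its protoplast values were tight and above every other array, and it rose by 0.98 ± 0.18 (limma adjusted p = 0.00152). UGT71B1, UGT71B5, UGT71B8, which also acts on abscisic acid, UGT71C1, UGT71C2 and UGT71C4 had between -0.81 and 0.41 and did not pass. UGT71C1 was dim, with 2.33, 4.18 and 8.02 in protoplasts and 35.7, 27.2 and 5.35 in intact cells. It was called without intact replicate 3, at -1.19 (limma adjusted p = 0.00536), the intact array that lay within the protoplast range.

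In subfamily 74, 1 of 3 genes rose and 1 fell, against 15.8% and 29.2% of all genes. UGT74B1 (AT1G24100), an enzyme of glucosinolate synthesis, had 1110.3, 786 and 524 in protoplasts, 417, 429.6 and 470.4 in osmotic cells and 422, 439 and 367 in intact cells. It rose by 0.89 ± 0.25 (limma adjusted p = 0.0157), but not without intact replicate 3 (limma adjusted p = 0.0525). UGT74D1 (AT2G31750), which glucosylates auxin and its oxidised form, had 30.9, 35.6 and 41.3 in protoplasts, 70.1, 74.2 and 98.1 in osmotic cells and 83.9, 93.5 and 69.5 in intact cells. All protoplast arrays were lower than all others, and UGT74D1 changed by -0.92 ± 0.18 (limma adjusted p = 0.00254). UGT74F1, which acts on salicylic acid, stayed dim with means of 2.9 in protoplasts and 2.42 in intact cells.

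None of the 10 genes of subfamilies 78, 80, 84 and 88 passed by limma in protoplasts against intact cells. UGT78D2 (AT5G17050), the glucosyltransferase of flavonols and anthocyanidins at the 3 position, was the brightest UGT gene in every walled-cell array. It had 642, 646 and 532 in protoplasts, 1792, 1989.8 and 902 in osmotic cells and 1076, 1069.7 and 876 in intact cells. Its protoplast arrays lay below all others, with -0.72 ± 0.28 against intact cells (limma adjusted p = 0.0667), and it was called without osmotic replicate 3 (limma adjusted p = 0.00789). The related UGT78D1, a flavonol rhamnosyltransferase, and UGT78D3, a flavonol arabinosyltransferase, had protoplast means of 2.01 and 3.5. The 5 genes of subfamily 84, among them the sinapate enzymes UGT84A1 and UGT84A3 and the auxin enzyme UGT84B1 beside UGT84A4 and UGT84B2, had means between 1.96 and 29 in protoplasts, and all were among the dimmest 40% of genes. The sterol glucosyltransferase gene UGT80B1 had -0.31 ± 0.19 and UGT88A1 had -0.45 ± 0.31 (limma adjusted p = 0.224 and 0.293).

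The comparison of osmotic with intact cells asks which UGT genes respond to mannitol medium in walled cells. Of the 48 UGT genes, 5 rose and 0 fell by limma, or 10.4% and 0%, against 3.58% and 3.75% of all genes. All 5 changed at least 2-fold, against 2.54% of all genes upward and 2.10% downward. At an unadjusted p under 0.05 the counts were 9 and 0, or 18.8% and 0%, against 10.6% and 11.7% of all genes. UGT73B4 rose by 2.05 ± 0.34 (limma adjusted p = 0.00859), UGT73B1 by 1.99 ± 0.22 (limma adjusted p = 0.00135) and UGT87A2 by 1.48 ± 0.27 (limma adjusted p = 0.0139). UGT73B5 rose by 1.43 ± 0.36 and UGT76E2 by 1.01 ± 0.25 (limma adjusted p = 0.0432 and 0.04). So 3 of the 5 were subfamily 73B genes. All osmotic arrays of these 5 genes, given above, lay above all intact arrays. The same separation was seen for 10 UGT genes upward and 1 downward, or 20.8% and 2.08%, against 14.7% and 16.2% of all genes. UGT85A2 with 1.10 ± 0.41, GT72B1 with 0.89 ± 0.36 and UGT73D1 with 0.85 ± 0.53 did not pass (limma adjusted p = 0.15, 0.173 and 0.396). The median of the 48 was 0.18, against 0.01 over all genes.

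Apart from UGT73B1, these mannitol calls were sensitive to single choices. With the replicate number as a block, UGT73B5 and UGT76E2 were lost (limma adjusted p = 0.0518 and 0.0604) and UGT85A2 was gained (limma adjusted p = 0.0281). UGT73B5 and UGT76E2 were also lost with a pseudocount of 1 (limma adjusted p = 0.11 for UGT73B5 and 0.0731 for UGT76E2) and after centring on the hybridisation controls (0.0563 and 0.0602), and UGT76E2 with a pseudocount of 64 (0.0506). Quantile normalization ended the call of UGT73B5 (limma adjusted p = 0.0551). UGT73B4 was lost with a pseudocount of 64 (limma adjusted p = 0.0949). UGT73B5 was lost without protoplast replicate 1 (limma adjusted p = 0.0662), 2 (0.066) or 3 (0.0509), without osmotic replicate 1 (0.0502), 2 (0.142) or 3 (0.0983), or without intact replicate 2 or 3 (0.0814 in both). UGT76E2 was lost without protoplast replicate 2 (limma adjusted p = 0.0624), osmotic replicate 1 (0.121), 2 (0.0674) or 3 (0.0901), or intact replicate 1 (0.108) or 3 (0.124). UGT87A2 was lost without osmotic replicate 2 (limma adjusted p = 0.0621) or intact replicate 1 (0.0511) or 3 (0.0531). Without protoplast replicate 3, which enters through the shared variance, GT72B1 and UGT85A2 were called (limma adjusted p = 0.0428 and 0.0481). Without osmotic replicate 3, UGT78D2 was called at 0.90 (limma adjusted p = 0.029).

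Protoplasts were set against osmotic cells to ask what the enzymes and washes add to mannitol medium. Both comparisons above share their intact arrays, and this one shares arrays with each of them. Of the 48 genes, 11 were higher in protoplasts and 3 lower, or 22.9% and 6.25%, against 13.3% and 25.7% of all genes. At least 2-fold, 9 were higher and 1 lower, or 18.8% and 2.08%, against 9.78% and 16.4%. The arrays did not overlap for 15 genes upward and 4 downward, or 31.2% and 8.33%, against 16.9% and 30.7% of all genes. UGT73D1 was higher by 5.81 ± 0.53, GT72B1 by 5.68 ± 0.36, UGT73B4 by 5.45 ± 0.34 and UGT73B5 by 5.14 ± 0.36 (limma adjusted p at most 5.6e-05). UGT73C7 had 3.43 ± 0.43 and UGT85A2 3.03 ± 0.41 (limma adjusted p = 2.6e-04 and 4.3e-04). All 11 were among the 14 that rose over intact cells, and 3 of them, UGT73B4, UGT73B5 and UGT87A2, were called higher in all 3 comparisons. UGT73B1 with 0.53 ± 0.22, UGT76E2 with -0.24 ± 0.25 and UGT76B1 with 1.35 ± 0.60 were the risers that did not pass between protoplasts and osmotic cells (limma adjusted p = 0.0917, 0.501 and 0.107). UGT73B1 was called higher, at 0.83, after quantile normalization or median centring (limma adjusted p = 0.0205 and 0.0218), at 0.38 with a pseudocount of 64 (0.0447) and at 0.71 with array weights (0.0137). UGT76B1 was called without osmotic replicate 3, at 2.10 (limma adjusted p = 0.00437), the array that held 204 against 23.9 and 37.7 in the other two, and with array weights, at 1.68 (limma adjusted p = 0.0157).

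The smaller differences between protoplasts and osmotic cells were those of UGT71B6 with 1.47 ± 0.42, UGT76E12 with 1.25 ± 0.26, UGT87A2 with 1.01 ± 0.27, UGT74B1 with 0.79 ± 0.25 and UGT71C5 with 0.78 ± 0.18. UGT78D2 was lower in protoplasts, at -1.27 ± 0.28 (limma adjusted p = 0.00568), as were UGT88A1 with -0.91 ± 0.31 and UGT74D1 with -0.89 ± 0.18 (limma adjusted p = 0.0425 and 0.00374). UGT88A1 (AT3G16520) had 88.6, 129.6 and 96.7 in protoplasts, 254, 268 and 133 in osmotic cells and 181, 180.3 and 96.4 in intact cells. Its intact arrays covered much of the range between the other groups. Over all genes, 1772 were called higher and 3435 lower as deposited, and their split under other scalings was not counted. After centring on the hybridisation controls the split of the UGT genes was 7 higher and 7 lower. So 50.0% of the called UGT genes were higher, against 78.6% as deposited. Median centring gave 14 higher and 2 lower, or 87.5% higher, and quantile normalization 12 higher and 3 lower, or 80.0% higher. UGT88A1 was lost under both (limma adjusted p = 0.124 and 0.137). Beside UGT73B1, median centring gained UGT71B8 and UGT73C1 as higher (limma adjusted p = 0.0454 and 0.0423), and quantile normalization gained UGT71C3 as lower (0.0459). Under the centring on hybridisation controls UGT71B6, UGT71C5, UGT74B1 and UGT87A2 were lost (limma adjusted p = 0.0648, 0.105, 0.144 and 0.0988). That centring also gained UGT71C3, UGT76C1, UGT84B2 and UGT85A4 as lower, at -1.05, -0.78, -0.85 and -1.51 (limma adjusted p = 0.0444, 0.0172, 0.0496 and 0.0294). With the replicate number as a block, UGT85A4 was also called lower, at -1.27 (limma adjusted p = 0.0319), beside UGT76C2 as given above. With a pseudocount of 1, UGT71B6, UGT74B1 and UGT88A1 were lost (limma adjusted p = 0.0903, 0.0511 and 0.0651).

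Leaving out single arrays ended some of these calls between protoplasts and osmotic cells. UGT71B6 was lost without protoplast replicate 1 or 2 (limma adjusted p = 0.0674 and 0.0668), and moved to 0.94 without osmotic replicate 3. UGT74B1 was lost without protoplast replicate 1 (limma adjusted p = 0.1) or 2 (0.0804), or osmotic replicate 1 (0.0832), 2 (0.0805) or 3 (0.0528). UGT87A2 was lost without protoplast replicate 1 (limma adjusted p = 0.0593). UGT88A1 was lost without protoplast replicate 1 (limma adjusted p = 0.126), 2 (0.0508) or 3 (0.0936), osmotic replicate 1 (0.129) or 2 (0.14), or intact replicate 1 (0.0534) or 2 (0.0539). Others were gained. UGT71C3 was called lower without protoplast replicate 3 or osmotic replicate 3 (limma adjusted p = 0.0301 and 0.00932), UGT85A4 without protoplast replicate 3 (0.00521) and the dim UGT84B2 without osmotic replicate 2 (0.0456).

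**Figure D4:**
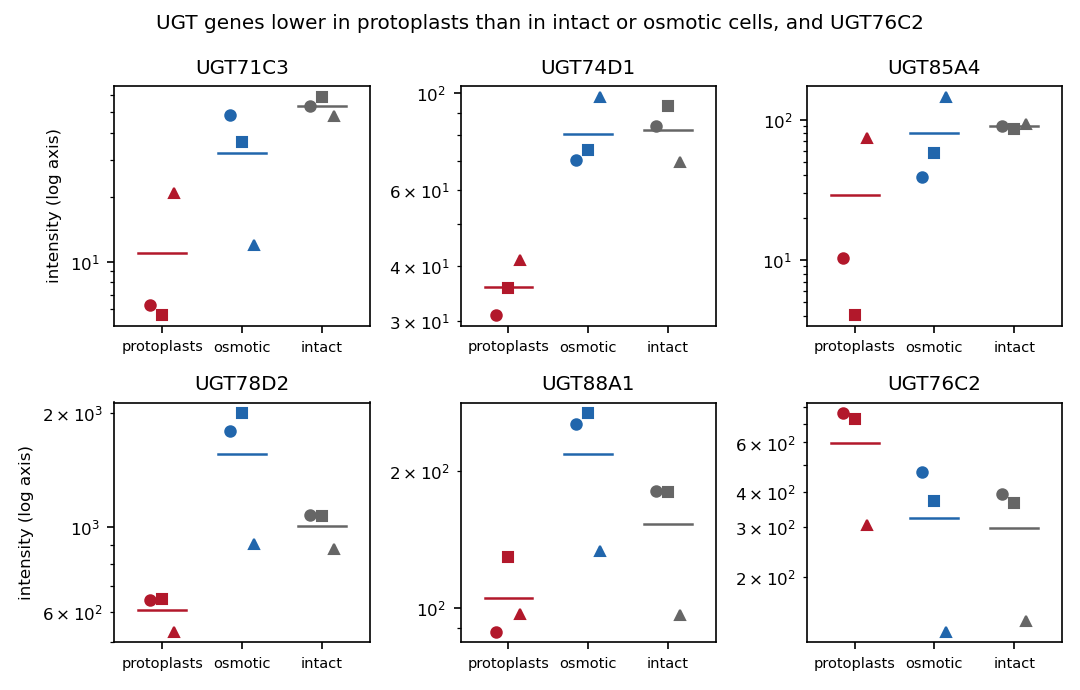
Intensity (log axis) in each array of 5 UGT genes lower in protoplasts than in intact or osmotic cells, and of UGT76C2. Circles, squares and triangles are replicates 1, 2 and 3, and lines are group means. UGT74D1 and UGT78D2 are lowest in all protoplast arrays, UGT85A4 is high in the third protoplast array, and UGT76C2 is low in the third array of each group.

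The protoplast arrays were not equal among themselves. In 12 of the 14 genes that rose over intact cells, protoplast replicate 3 lay below the mean of replicates 1 and 2, by a median log2 difference of -0.68. The differences ran between -1.64 for UGT73D1 and 0.43 for UGT76E2. UGT73B5, with -0.11, stood apart from its neighbour UGT73B4, with -1.33. The same array was lower in 66.4% of all 2108 genes that rose in protoplasts, with a median of -0.22, and in 83.0% of the 253 genes that rose at least 16-fold, with a median of -0.62, while over all genes its median was 0.11. The summed intensity of the 48 genes was 39975, 43371 and 20936 in protoplasts, 7215, 7079.6 and 5116 in osmotic cells and 4279, 4270.4 and 3803 in intact cells. The protoplast sums lay above all others in each replicate. Without protoplast replicate 3, 14 genes rose and 3 fell, and with replicates 1 and 2 of each group alone 16 rose and 6 fell. Calls over all genes were not counted under these settings, so these UGT counts have no share of all genes beside them.

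Many UGT genes lie next to each other in the genome, and 31 of the 48 formed 13 groups with at most 2 other protein-coding genes between neighbours in the TAIR10.1 gene order. In protoplasts against intact cells, all members were called the same way in 2 of these groups, UGT73B4 with UGT73B5 and UGT73C7 with UGT73D1. In 4 groups some members rose and the others were not called. UGT85A2 rose beside UGT85A3, UGT85A5 and UGT85A7 on chromosome 1, UGT71B6 beside UGT71B1 and UGT71B8 on chromosome 3, UGT76E12 beside UGT76E11, and UGT76E2 beside UGT76E1. The group of UGT71C3, UGT71C4 and UGT71C5 on chromosome 1 went both ways, with UGT71C3 at -1.41, UGT71C4 at -0.56 and UGT71C5 at 0.98. In the other 6 groups no member was called. Neighbouring genes outside the UGT genes were not counted, so these group counts have no share over all genes beside them. Near-identical neighbours can share signal on an array, which the annotation of probe sets to single genes does not settle.

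Genes that work with UGTs were read from lists, chosen by role. Of the 34 entries on the UDP-sugar list, 1 was matched by name to a measured gene. This was the UDP-sugar pyrophosphorylase gene USP, which makes UDP-sugars. It rose by 1.04 ± 0.24 in protoplasts against intact cells (limma adjusted p = 0.00552). USP had 2544, 2515 and 1549 in protoplasts, 1159, 1013 and 886 in osmotic cells and 1096, 1199.9 and 849 in intact cells. The walled groups overlapped, with -0.03 ± 0.24 in osmotic cells. None of the 12 TGA transcription factors on the list, which bind promoters of detoxification genes, was matched by name to a measured gene. They may still be on the array, on probe sets without a symbol in the annotation.

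Beta-glucosidases, the enzymes that can remove the sugar again, split in protoplasts, where 3 of 20 measured genes fell and 6 rose around a median log2 change of -0.02. These are 15% lower and 30% higher, against 29.2% and 15.8% of all genes. BGLU45 (AT1G61810) and BGLU46 (AT1G61820), which act on monolignol glucosides, rose by 6.75 ± 0.48 and 6.44 ± 0.85 (limma adjusted p = 6.7e-06 and 2.1e-04). BGLU45 had 7299.6, 7885 and 2015 in protoplasts, 45.9, 33 and 24.5 in osmotic cells and 25.8, 19.1 and 48.4 in intact cells. BGLU46 had 4537, 5138 and 401 in protoplasts, 26.9, 35.4 and 4.66 in osmotic cells and 22.5, 2.38 and 4.97 in intact cells, so the third protoplast array was lowest in both genes, as in UGT73D1. BGLU32, BGLU27, BGLU31 and BGLU16 rose by 5.46, 5.23, 4.37 and 3.30. BGLU43, BGLU44 and BGLU15, an enzyme of flavonol glycoside breakdown, changed by -1.33, -1.11 and -1.06. In osmotic cells 1 rose and 1 fell, BGLU31 with 1.06 ± 0.25 and BGLU15 with -0.79 ± 0.18 (limma adjusted p = 0.037 and 0.0322), 5% each way against 3.58% higher and 3.75% lower of all genes. Against osmotic cells 6 were higher in protoplasts and 3 lower, BGLU43, BGLU44 and BGLU25, the last with -1.04 ± 0.34. That is 30% and 15%, against 13.3% and 25.7% of all genes. BGLU25 lost that call without any single array other than protoplast replicate 3 (limma adjusted p between 0.0514 and 0.133). BGLU44 lost its call against intact cells without intact replicate 2 (limma adjusted p = 0.0518). In osmotic cells BGLU15 was lost without osmotic replicate 1 (limma adjusted p = 0.106) or 2 (0.088), or intact replicate 1 (0.107), 2 (0.104) or 3 (0.0579). BGLU31 was lost without protoplast replicate 1 (limma adjusted p = 0.0548) or 2 (0.0588), osmotic replicate 2 (0.123) or 3 (0.0612), or intact replicate 1 (0.125) or 3 (0.0984).

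**Figure D5:**
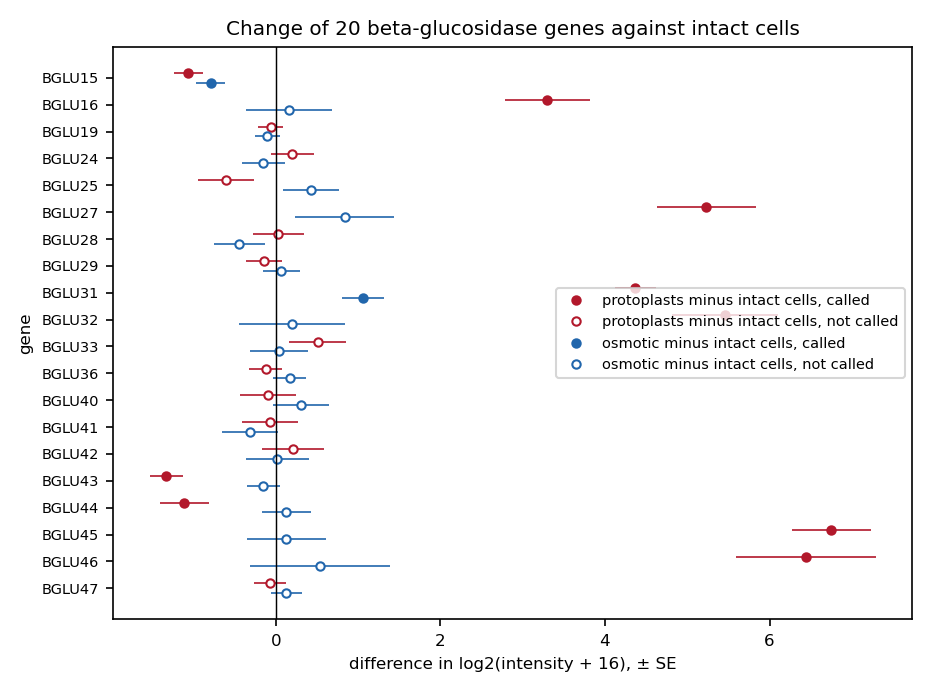
Difference in log2(intensity + 16) from intact cells for 20 beta-glucosidase genes, with red for protoplasts and blue for osmotic cells. Bars are 1 standard error of the linear model on 3 arrays per group, and filled points are called at a limma adjusted p under 0.05. In protoplasts 6 genes rose, with BGLU45 and BGLU46 farthest right on this scale, and 3 fell.

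Of the 44 entries for phenylpropanoid and flavonoid synthesis, which supply many acceptors of UGTs, 5 were matched by name to measured genes. Of these, 3 rose and 0 fell in protoplasts, or 60% and 0%, against 15.8% and 29.2% of all genes. CCR2 and HCT of monolignol synthesis rose by 6.21 ± 0.42 and 3.51 ± 0.32, and ALDH2C4, which makes ferulic and sinapic acid, by 1.01 ± 0.26 (limma adjusted p = 4.8e-06, 2.4e-05 and 0.0102). The flavonoid genes DFR and CHIL had 0.30 ± 0.38 and -0.28 ± 0.45 and did not pass. ALDH2C4 lost its call after centring on the hybridisation controls (limma adjusted p = 0.0632). In osmotic cells 1 of the 5 rose, CCR2, or 20.0% against 3.58% of all genes. Of the 15 measured partners in detoxification, mostly glutathione transferases, 5 rose and 2 fell in protoplasts, or 33.3% and 13.3%, against 15.8% and 29.2% of all genes. In osmotic cells 5 rose and 0 fell, or 33.3% and 0%, against 3.58% and 3.75%. Against osmotic cells 3 were higher and 1 lower in protoplasts, or 20.0% and 6.67%, against 13.3% and 25.7%. The largest rise on this scale was that of GSTU25, a tau class glutathione transferase, with 7.85 ± 0.23 in protoplasts and 2.56 ± 0.23 in osmotic cells, and the larger fall was that of GSTL3 with -0.82 ± 0.22. GSTL3 lost this call after median centring (limma adjusted p = 0.0802). The other fall, that of ATGSTF13 with -0.78 ± 0.27, was lost without protoplast replicate 2 (limma adjusted p = 0.11) or 3 (0.117), osmotic replicate 2 (0.0605), or intact replicate 2 (0.152) or 3 (0.106). GSTL3 was also the gene lower in protoplasts than in osmotic cells, with -0.80 ± 0.22, a call lost without protoplast replicate 1 (limma adjusted p = 0.0629) or 2 (0.051), osmotic replicate 2 (0.0607) or 3 (0.0541), or after median centring (0.0948). The rise of GSTU28 in protoplasts was lost without protoplast replicate 2 (limma adjusted p = 0.0503). The other rises in osmotic cells were those of AER, of GSTU22 with 2.19 ± 0.29, GSTU28 with 1.96 ± 0.44 and GSTU21 with 0.71 ± 0.18. GSTU28 was lost without osmotic replicate 1 (limma adjusted p = 0.0705) or 2 (0.104), or intact replicate 1 (0.0816), 2 (0.0955) or 3 (0.0855). GSTU21 was lost without any single array other than protoplast replicate 3 (limma adjusted p between 0.0588 and 0.154). AER (AT5G16970), an alkenal reductase that removes reactive aldehydes, had 11825, 13359.7 and 10795 in protoplasts, 7104, 5777 and 5508 in osmotic cells and 2539, 2349 and 1416 in intact cells. The groups did not overlap, as for UGT87A2, and AER rose by 2.54 ± 0.24 over intact cells, 1.57 ± 0.24 in osmotic cells over intact cells and 0.97 ± 0.24 in protoplasts over osmotic cells (limma adjusted p = 3.0e-05, 0.00588 and 0.00965). The last of these calls was lost after centring on the hybridisation controls (limma adjusted p = 0.0692).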

How the data were processed

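The deposited values are probe set intensities, not log transformed, for 9 ATH1 arrays hybridised with biotin-labelled cRNA from 750 ng total RNA, per the labels' protocols. Each array's mean was 500 after trimming 2% at each end. The sources used here do not give the summarising software.

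Of 22810 probe sets, 64 were controls, 13513 had 1 symbol, 503 several and 8730 none in the array annotation, which can be old. A gene was read from its brightest one-gene probe set, which gave 13356 genes, 13286 of them in RefSeq (TAIR10.1), used for names and gene order only. The values log2(intensity + 16) of all arrays entered 1 model in limma 3.58.1 (R 4.3.3), with Benjamini-Hochberg adjustment over all genes. Tested on simulated data with 200 of 13356 genes changed, it called, between protoplasts and intact cells, 93.8% of 4-fold changes, 31.2% of 2-fold changes and 0.0517% of unchanged genes. In the measured data far more were called in that comparison, 15.8% of genes higher and 29.2% lower. The simulated noise was independent between arrays and had no floor for dim genes. The simulated shares therefore need not hold for these data. Tables were made with pandas 2.3.3 and figures with matplotlib 3.10.9 in Python 3.11.15. The labels number the replicates as biological and do not say whether they came from separate cultures, so p-values may measure only the spread between these samples.

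The members, lists and tests were chosen with earlier results of these data known. Values in every array were printed for UGT73B4, UGT73B5, UGT73D1, UGT71C3 and GT72B1, for the largest riser and faller called in each subfamily, for members called in osmotic cells and for the brightest member of each group. Of each list, the largest riser and faller were named. UGT73C7, UGT71B6, UGT71C1, UGT71C5, UGT72B3, UGT76C2, UGT76E12, UGT88A1 and further list genes were added after their values were seen. A chitinase gene that shares the symbol CHI was left out of its list, as were plastid-encoded genes. Promoter and protein sequences were not analysed here.

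The deviations of same-numbered arrays from their group means correlated at 0.19, 0.122 and 0.322 (numbers 1, 2 and 3) between protoplasts and osmotic cells and at 0.101, 0.177 and 0.31 between osmotic and intact cells, all over 0.1, so the blocked fit is given beside those results. Between protoplasts and intact cells same-numbered arrays had 0.107, 0.021 and 0.145. Arrays 1 and 2 of unlike number correlated at a like size, at 0.148 both ways between protoplasts and osmotic cells. Between osmotic and intact cells they had 0.152 and 0.13. The same-number values thus do not show that arrays were paired by number. Alternatives were the replicate block, other scalings, pseudocounts, filters, thresholds, probe set rules, array weights, smaller fits and leaving out each array. Without replicate 3 of any group, and with replicate 3 as a term, the fits were repeated after the data had been seen.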

Additional observations from a re-analysis of the deposited data

How the results depend on the processing

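Of the 17 UGT genes called in protoplasts against intact cells, 10 kept their call under every alternative that tested them. These were UGT71C3, GT72B1, UGT73B1, UGT73B4, UGT73B5, UGT73C7, UGT73D1, UGT76B1, UGT85A2 and UGT87A2. The dim UGT71C3 was not in the fit without the dimmest 40% of genes, so that alternative did not test it. Of the 5 called in osmotic cells against intact cells 1 kept its call in this way, UGT73B1. Of the 14 called in protoplasts against osmotic cells 8 did, among them the dim UGT76E12, which was also not in that fit. No called UGT gene changed direction under any alternative. Leaving out 1 array gave 12 to 14 higher and 2 to 4 lower in protoplasts against intact cells, 2 to 6 higher and 0 lower in osmotic against intact cells, and 8 to 11 higher and 2 to 4 lower in protoplasts against osmotic cells. The 3 falls in protoplasts against intact cells became 5 with centring on hybridisation controls, 5 with array weights and 6 with replicates 1 and 2 alone. The 5 rises in osmotic cells became 3 with a fit to the groups compared only, with centring on hybridisation controls and with a pseudocount of 1 or 64, 10 with array weights and with replicates 1 and 2 alone, and 2 at an adjusted p under 0.01. Between protoplasts and osmotic cells, the 11 higher became 7 and the 3 lower became 7 with centring on hybridisation controls, and the 3 lower became 5 with array weights and with replicates 1 and 2 alone, and 1 with at least a 2-fold change. Apart from the 2-fold change, calls over all genes were not counted under the alternatives. The UGT counts given here therefore have no share of all genes beside them. A general change in the number of calls cannot be told from a change in the UGT genes. The cause of these moves was not tested. With the replicate number as a block, 14 rose and 4 fell in protoplasts against intact cells, where UGT76E12 was lost (limma adjusted p = 0.0507) and UGT76C2 and UGT78D2 were gained at 0.98 and -0.72 (limma adjusted p = 0.00194 and 0.0271), 4 rose in osmotic cells, and 12 were higher and 4 lower in protoplasts against osmotic cells. The block changed no call of a UGT gene other than these and those named in the results. Not every array correlated best with its own number.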

Other observations

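Another 3 measured genes have a UGT name only among their RefSeq synonyms and so fell outside the symbol rule. The sterol glucosyltransferase gene SGT (AT3G07020, synonym UGT80A2) had 230.0, 252 and 375 in protoplasts, 258, 323 and 334 in osmotic cells and 279, 287 and 427 in intact cells, and did not pass in protoplasts against intact cells, with -0.21 ± 0.24 (limma adjusted p = 0.548). UF3GT (AT5G54060, synonym UGT79B1), a gene of anthocyanin glycosylation, had 31.8, 21.2 and 46.5 in protoplasts, 27.5, 56.4 and 31.3 in osmotic cells and 6.18, 2.97 and 19.6 in intact cells, with 0.96 ± 0.31 in protoplasts and 1.10 ± 0.31 in osmotic cells against intact cells (limma adjusted p = 0.0271 and 0.0613). AT5G54010, with the synonym UGT79B6, was dim, with group means of 5.09 in protoplasts, 6.3 in osmotic cells and 3.52 in intact cells.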
